A study of Mus musculus with 18 samples.

Results

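Transcripts of 9 genes of arginine and polyamine metabolism, Slc7a2, Arg1, Arg2, Nos2, Ass1, Odc1, Srm, Sms and Sat1, were followed in 2 macrophage subsets of liver metastases. The genes were chosen by symbol for their place in the pathway. They are 9 of the 13759 genes counted in the macrophages, all of which passed the filter on low counts. The 4 polyamine genes Odc1, Srm, Sms and Sat1 were also followed in 4 populations of type 1 lymphocytes, where they are 4 of 54309 counted genes and 4 of the 13594 that passed the filter.

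Arginine enters macrophages through cationic amino acid transporters such as the one encoded by Slc7a2. Arginases split it into urea and ornithine, inducible nitric oxide synthase turns it into nitric oxide and citrulline, and argininosuccinate synthase starts the route from citrulline back to arginine. Ornithine decarboxylase then opens polyamine synthesis by making putrescine, which is extended to spermidine and spermine and is drawn off through acetylation. Arg1 and Nos2 compete for the same substrate and are widely used as marker genes of opposite states of macrophage activation.

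All samples came from female C57BL6/J mice with liver metastasis (LM) of MC38. The mice were aged 8 to 10 weeks when these mouse colon adenocarcinoma cells were injected into the spleen, and samples were taken 20 days later. Metastasis-associated macrophages (MAMs) were sorted as CD45+CD11b+ cells into F4/80hi MAMs, labeled F4/80high, and F4/80int MAMs, labeled F4/80low, with 3 poly(A) libraries each. The lymphocytes were MFL NK cells (CD49a-CD49b+) and MFL ILC1 (CD49a+CD49b-) from metastasis-free liver (MFL), and, from LM, CD49a- NK cells and CD49a+ NK cells (CD49a+CD49b+), hereafter LM CD49a- and LM CD49a+ NK cells, each with 3 total RNA libraries from pools of 6 to 8 samples. LM was digested with enzyme and MFL was pressed through a filter, so site and dissociation cannot be told apart. MC38 is 1 line, and nothing in the sources used here ties the MAM libraries to separate mice, so p-values measure the spread between these libraries only. ILC1 is the name that the titles give to the LM CD49a+ NK libraries, and the population label was followed.

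Library totals were 21278959 to 32267015 counts for MAMs and 8795721 to 14386834 for lymphocytes. Levels are given as counts per 1000000 (CPM) after TMM scaling, and per kilobase (kb) of the canonical transcript where genes are compared with each other. A gene was called when edgeR's quasi-likelihood test gave a Benjamini-Hochberg adjusted p under 0.1 over all genes tested. Adgre1, which encodes F4/80, was at 806 to 1167 CPM in F4/80hi and at 124 to 160 CPM in F4/80int MAMs, in the direction of the sort.

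Between F4/80hi and F4/80int MAMs, 7 of the 9 genes were called. The transporter Slc7a2, both arginases, Nos2, Ass1 and Sat1 were lower in F4/80hi MAMs, Srm was higher, and Odc1 and Sms did not pass the test. Over all 13759 genes, 54.9% were called, 27.8% as higher and 27.1% as lower in F4/80hi MAMs, so more than every second gene differed between the subsets and a count of 7 of 9 is to be read against that share. The median log2 fold change (F4/80hi over F4/80int) of the 9 genes was -1.38, and it was 0.01 over all genes. The libraries of the subsets did not overlap for 6 of the 9 genes, Slc7a2, Arg1, Arg2, Nos2, Ass1 and Srm, and for 58.4% of all genes. With scaling to total counts only, the split over all genes was 5205 higher and 2816 lower in place of 3821 and 3734, the median shifted up by 0.15, and Odc1 was called in place of Sat1.

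**Figure D1:**
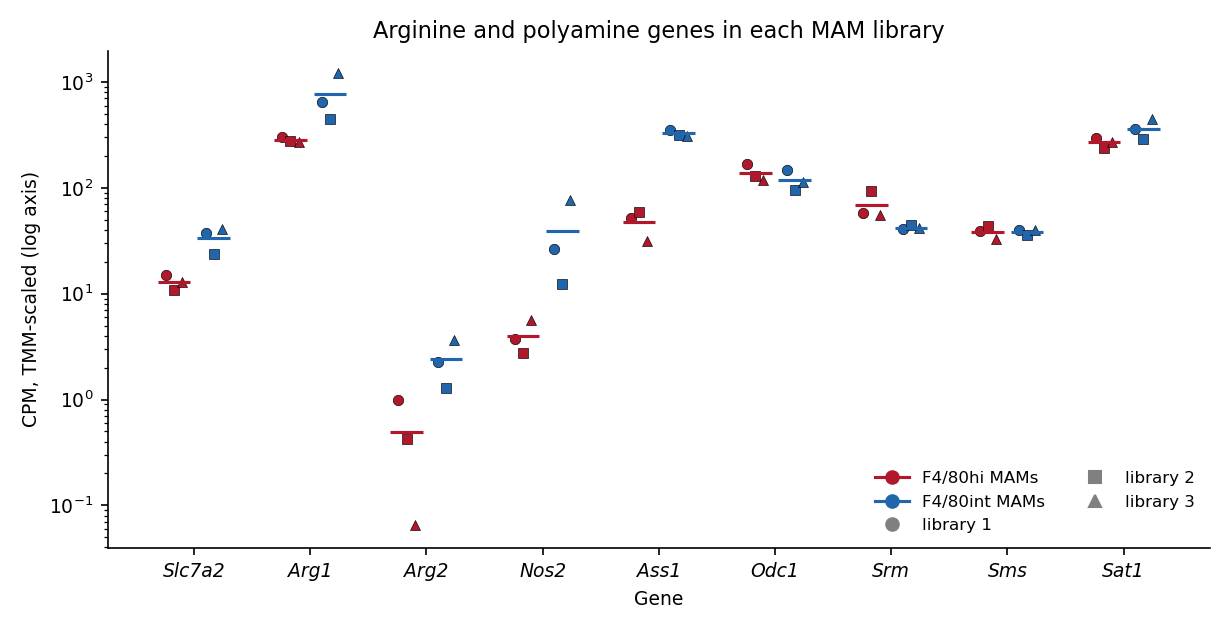
Level of each gene (CPM after TMM scaling, log axis) in each of the 3 F4/80hi (red) and 3 F4/80int (blue) MAM libraries, with symbols for the library and bars for the group mean. Slc7a2, Arg1, Arg2, Nos2 and Ass1 lie lower in all F4/80hi libraries than in any F4/80int library, Srm lies higher, and Odc1, Sms and Sat1 overlap.

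Slc7a2 (ENSMUSG00000031596.16, chr8:41315431-41375345, GRCm39) encodes the cationic amino acid transporter CAT2. Its levels were 15.2, 10.8 and 13 CPM in F4/80hi MAMs and 37.2, 23.6 and 40.7 CPM in F4/80int MAMs. Every F4/80hi library was below every F4/80int library. In F4/80hi over F4/80int MAMs its log2 fold change was -1.38 (SE 0.21, adjusted p = 0.00098, edgeR).

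Arg1 (ENSMUSG00000019987.10, chr10:24791118-24803817) encodes the cytosolic arginase. It stood at 301, 275 and 270 CPM in F4/80hi MAMs, a narrow range, and at 649, 444 and 1209 CPM in F4/80int MAMs. The means were 282 ± 16.9 and 767 ± 396 CPM (SD, n = 3 each). F4/80hi MAMs were lower in all 3 libraries, by -1.44 on the log2 scale (SE 0.31, adjusted p = 0.0058, edgeR). Library 3 of F4/80int MAMs set much of this size. Without it the log2 fold change was -0.95 and Arg1 was still called.

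Arg2 (ENSMUSG00000021125.7, chr12:79177524-79203075), the mitochondrial arginase, was detected at the edge of the range. Counts were 22, 12 and 2 in F4/80hi MAMs and 69, 38 and 85 in F4/80int MAMs, or at most 3.68 CPM. On the log2 scale the fold change was -2.34 (SE 0.73, adjusted p = 0.028, edgeR), and it was -3.30 without F4/80hi library 1. Arg2 overlaps Vti1b on the opposite strand, which held 997 to 1613 counts per library, and how strand was used in counting the MAM reads is not given in the sources used here. In every library Arg1 exceeded Arg2 per kb of transcript, by a factor of 259 to 309 in F4/80int MAMs and of 275 to 3759 in F4/80hi MAMs, where the highest ratio rests on 2 counts of Arg2.

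Nos2 (ENSMUSG00000020826.10, chr11:78811613-78851080) encodes inducible nitric oxide synthase. It was at 3.69, 2.76 and 5.61 CPM in F4/80hi MAMs and at 26.6, 12.5 and 77.2 CPM in F4/80int MAMs, and the groups did not overlap. The log2 fold change of -3.25 (SE 0.64, adjusted p = 0.0035, edgeR) was the largest in size among the 9 genes with all 6 libraries. Its F4/80int libraries ranked like those of Arg1, with library 3 highest and library 2 lowest. Without library 3, the log2 fold change was -2.27, smaller in size than that of Ass1 (-2.82), and the call remained.

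Arg1 and Nos2 thus were both lower in F4/80hi MAMs, with log2 fold changes of different size. The ratio of Arg1 to Nos2 per kb of transcript within a library was 212, 259 and 125 in F4/80hi MAMs and 63.5, 92.7 and 40.7 in F4/80int MAMs. All F4/80hi libraries had a higher ratio than any F4/80int library. This ratio was formed after the levels were seen and is given without a test.

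**Figure D2:**
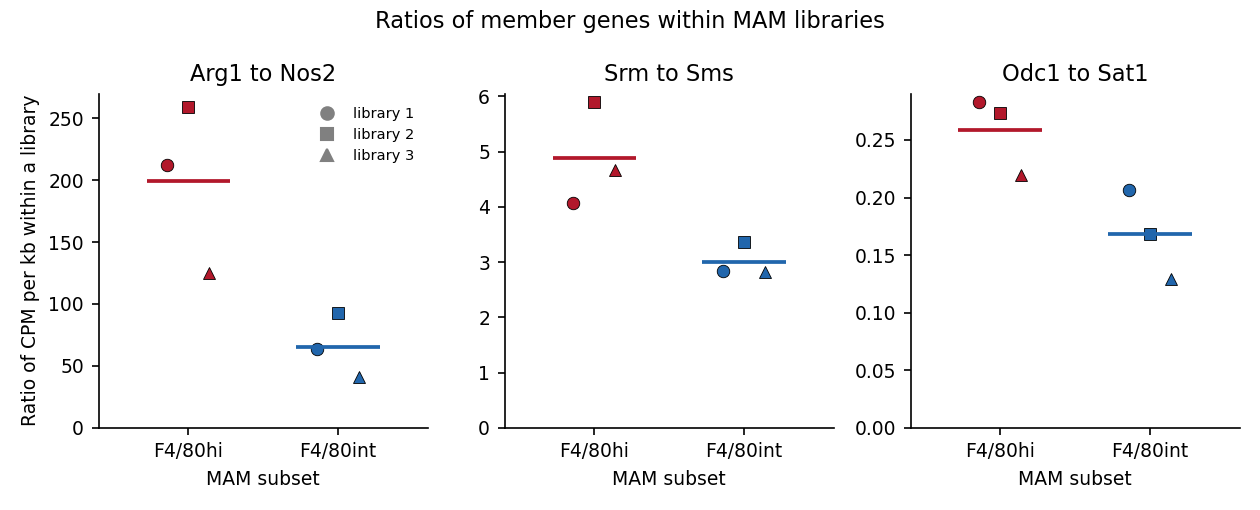
Ratio of 2 genes within each MAM library, from CPM per kb of transcript, for Arg1 to Nos2, Srm to Sms and Odc1 to Sat1, with bars for the mean of 3 libraries. Each ratio is higher in all F4/80hi libraries than in any F4/80int library, and the Arg1 to Nos2 ratio spans 125 to 259 in F4/80hi and 40.7 to 92.7 in F4/80int MAMs.

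Ass1 (ENSMUSG00000076441.10, chr2:31352181-31410862) encodes argininosuccinate synthase, the enzyme that joins citrulline with aspartate. Its levels were 51.6, 59.7 and 31.2 CPM in F4/80hi MAMs and 352, 317 and 312 CPM in F4/80int MAMs. The F4/80int libraries lay close together here, with a mean of 327 ± 21.8 CPM (SD, n = 3), and far above the F4/80hi libraries. The log2 fold change was -2.78 (SE 0.22, adjusted p = 3.1e-05, edgeR), the smallest p of the 9 genes. Leaving out any 1 library kept it between -2.98 and -2.56.

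Among the polyamine genes, Odc1 (ENSMUSG00000011179.9, chr12:17594383-17601507), the ornithine decarboxylase that opens the pathway, was at 167, 130 and 118 CPM in F4/80hi MAMs and at 146, 96.4 and 113 CPM in F4/80int MAMs. These ranges overlapped. Its log2 fold change was 0.22 (SE 0.17, adjusted p = 0.34, edgeR). Odc1 was called with total counts only (0.37, adjusted p = 0.0998) and without F4/80int library 1 (0.39, adjusted p = 0.093).

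Srm (ENSMUSG00000006442.11, chr4:148675940-148681792) encodes spermidine synthase and was the member called as higher in F4/80hi MAMs. It was at 58.3, 93.7 and 55.7 CPM there and at 40.9, 44.2 and 41.4 CPM in F4/80int MAMs, with no overlap. Srm rose by a log2 fold change of 0.72 (SE 0.19, adjusted p = 0.014, edgeR). F4/80hi library 2 was the highest, and without it the log2 fold change was 0.44 with Srm still called.

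Sms (ENSMUSG00000071708.12, chrX:156226848-156275317), the spermine synthase that acts next, was at 39.4, 43.7 and 32.8 CPM in F4/80hi MAMs and at 39.6, 36.2 and 40.3 CPM in F4/80int MAMs. Its log2 fold change of -0.00 (SE 0.12, adjusted p = 0.98, edgeR) changed sign with the scaling. A processed pseudogene, Sms-ps, held a further 115 to 195 counts per library, so reads of Sms could have been split. Within a library, the ratio of Srm to Sms per kb was 4.07 to 5.90 in F4/80hi MAMs and 2.82 to 3.36 in F4/80int MAMs, again without a test.

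Sat1 (ENSMUSG00000025283.16, chrX:153996128-153999452) encodes the acetyltransferase that marks spermidine and spermine for export or breakdown. It was at 298, 240 and 273 CPM in F4/80hi MAMs and at 359, 289 and 443 CPM in F4/80int MAMs. The lowest F4/80int library fell inside the F4/80hi range. Sat1 was called at a log2 fold change of -0.43 (SE 0.16, adjusted p = 0.052, edgeR), and this call was lost without F4/80hi library 2 (-0.35, adjusted p = 0.15), without F4/80int library 3 (-0.26, adjusted p = 0.16) and with scaling to total counts only (-0.28, adjusted p = 0.13).

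Per kb of transcript, Sat1 and Arg1 were the most abundant of the 9 transcripts in both subsets. In F4/80hi MAMs, Sat1 (231 ± 24.8 CPM per kb, SD, n = 3) was followed by Arg1 (175 ± 10.5), Odc1 (59.8 ± 10.9), Srm (51.0 ± 15.7), Ass1 (27.0 ± 8.33) and Sms (10.3 ± 1.47). Slc7a2, Nos2 and Arg2 were below 2 CPM per kb on average there. In F4/80int MAMs, Arg1 (476 ± 246) and Sat1 (311 ± 65.9) were followed by Ass1 (186 ± 12.4), which had moved above Odc1 (51.3 ± 11.0) and Srm (31.0 ± 1.30). Odc1 and Srm in F4/80hi MAMs, Arg1 and Sat1 in F4/80int MAMs, and Sms (10.4 ± 0.60) and Nos2 (9.24 ± 8.12) in F4/80int MAMs were neighbors whose order lay within their spread.

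**Figure D3:**
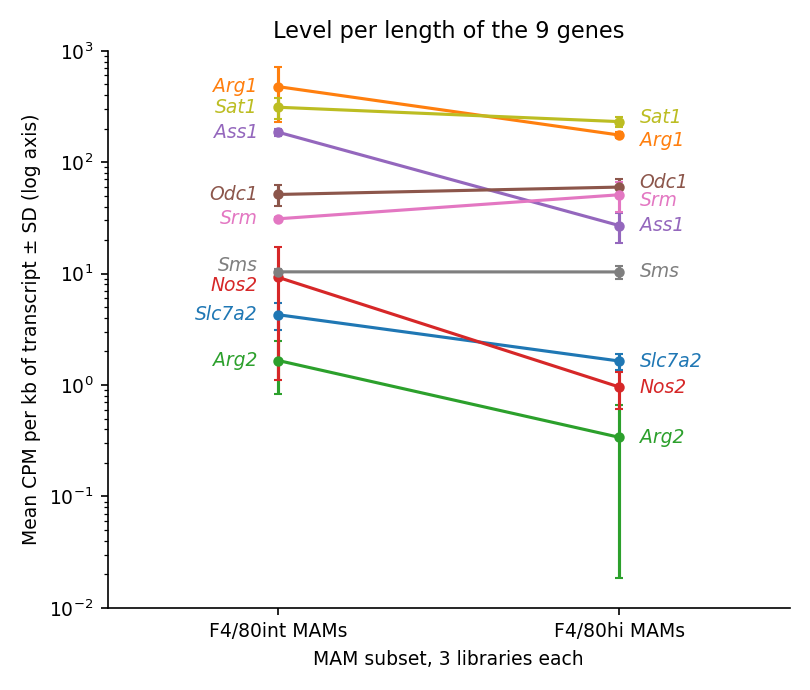
Mean level per kb of canonical transcript (CPM per kb, log axis, error bars SD over 3 libraries) of the 9 genes in F4/80int and F4/80hi MAMs, with a line joining the means of a gene. The lines of Nos2, Ass1, Arg2, Arg1 and Slc7a2 fall most steeply toward F4/80hi MAMs, while those of Odc1 and Sms are nearly flat and that of Srm rises from 31.0 to 51.0.

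The F4/80int libraries differed among themselves more than the F4/80hi libraries for Arg1 and Nos2. In 6 of the 9 genes, Slc7a2, Arg1, Arg2, Nos2, Sms and Sat1, F4/80int library 3 was the highest and library 2 the lowest, whereas Ass1 was highest in library 1. The hemoglobin genes Hba-a1 and Hbb-bs summed to 63.7 CPM in F4/80int library 3, to 27.7 CPM in F4/80hi library 3 and to at most 2.92 CPM in the other 4 libraries. Their part in the levels of the 9 genes was not tested.

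Of 10079 genes with a mean of at least 5 CPM, those whose log2 CPM followed Arg1 most closely over the 6 MAM libraries were Zfp688, Hilpda, Tnfrsf23, Furin and Ankzf1, with Pearson's r of 0.993 to 0.998. For Nos2 they included Snx18, Ndrg1, Trim25 and Aifm2, with r of 0.990 to 0.993. Over 6 libraries in 2 groups these values are a description only. Of the 10079 genes, r was above 0.95 for 114 with Arg1 and for 140 with Nos2.

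The wider pathway was described with 8 lists of further genes, which held 54 genes, 44 of them counted in MAMs. Of these 44, 16 were called as higher and 6 as lower in F4/80hi MAMs, or 50%, against 54.9% of all genes, and their median log2 fold change was 0.13. So while 6 of the 9 genes above were lower in F4/80hi MAMs, the calls in the other lists were mostly in the higher direction. Counts of calls within the single lists below are to be read against the same 54.9%.

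**Figure D4:**
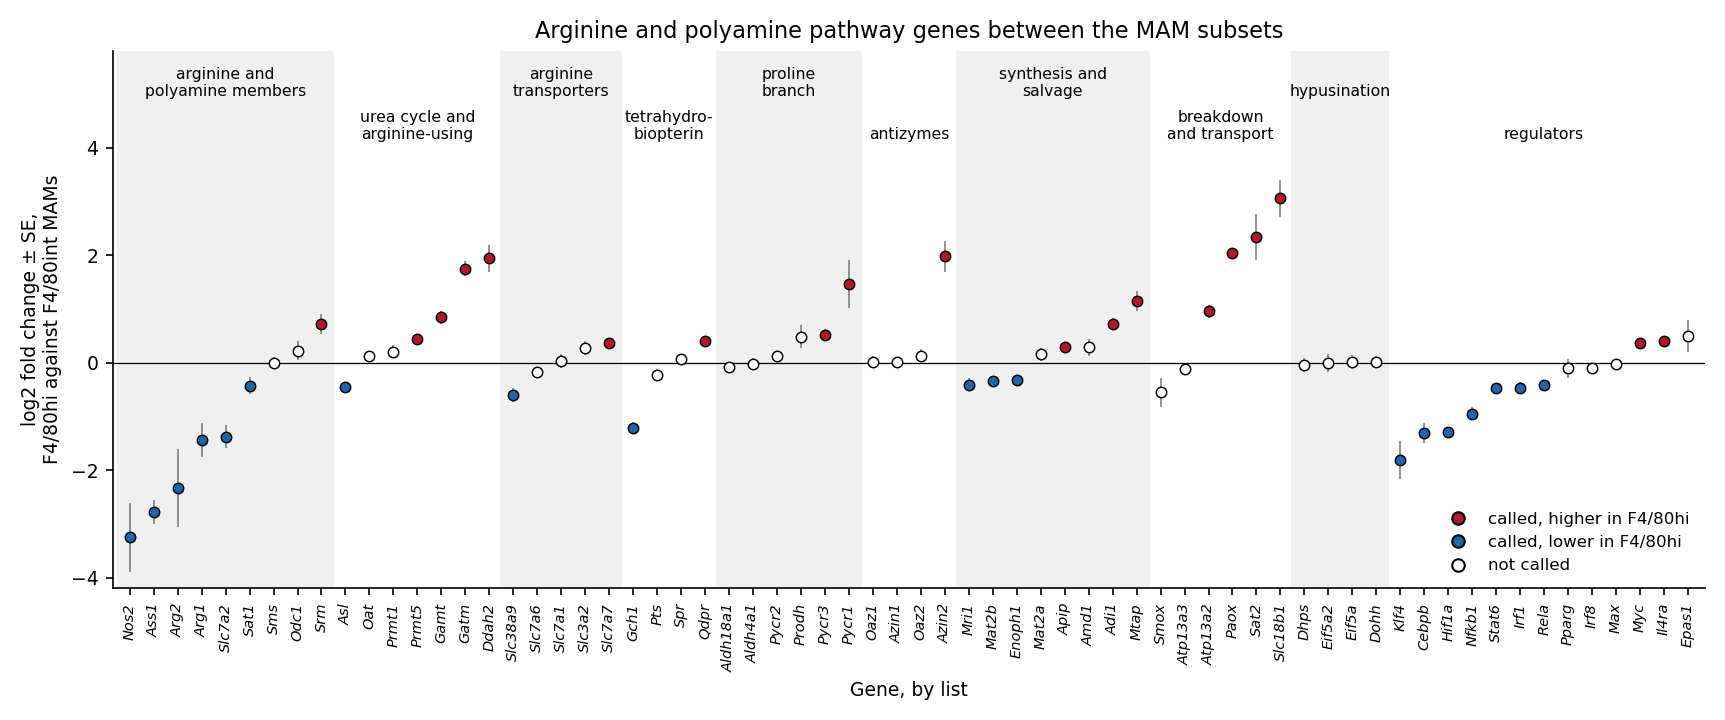
Log2 fold change of F4/80hi over F4/80int MAMs with its approximate SE for the 9 genes, for the counted genes of 8 further pathway lists and for 13 regulators, with called genes in red (higher) or blue (lower) and other genes in white. Nos2 and Ass1 lie lowest, near -3, while Paox, Sat2 and Slc18b1 of polyamine breakdown and transport lie at 2 or above and the 4 hypusination genes lie at 0.

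Among 7 counted enzymes that use arginine or serve the urea cycle, 4 were higher and 1 was lower in F4/80hi MAMs (median log2 fold change 0.44). This was 71.4% called, against 54.9% of all genes. Gatm, which transfers the amidino group of arginine to glycine in the first step of creatine synthesis, was at 628, 670 and 598 CPM in F4/80hi MAMs and at 226, 186 and 153 CPM in F4/80int MAMs. Its log2 fold change was 1.74 (SE 0.14, adjusted p = 3.95e-05, edgeR), in the opposite direction to the arginases and Nos2. Gamt, the enzyme of the second step of creatine synthesis, was higher as well (0.84), and so was Ddah2, of a family that breaks down methylarginines (1.94). Asl, which releases arginine from the product of Ass1, was lower by a small margin (-0.46, SE 0.08), with 36.7, 33.3 and 35.3 CPM against 49.4, 45.9 and 49.7 CPM. Prmt5, an arginine methyltransferase, was called as higher (0.44), and Oat, which takes ornithine toward glutamate, was not called (0.13, SE 0.09). Cps1 and Otc, urea cycle genes of hepatocytes, were not among the genes counted in MAMs, all of which had a total of at least 37 counts.

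Of 5 other arginine transporters or partners, Slc7a7 was higher (0.36, SE 0.09) and the lysosomal Slc38a9 lower (-0.61, SE 0.13) in F4/80hi MAMs. Slc7a1, which encodes the widely expressed transporter CAT1, was at 50.5 to 68.1 CPM in F4/80hi and at 50.8 to 61.9 CPM in F4/80int MAMs and was not called (0.03, SE 0.13). Among the genes of tetrahydrobiopterin, the cofactor of nitric oxide synthases, Gch1, the rate-limiting enzyme of its synthesis, was lower at 19.4, 22.7 and 20.2 CPM against 45.7, 45.6 and 53.7 CPM. Its log2 fold change was -1.22 (SE 0.10, adjusted p = 4.8e-05, edgeR). Qdpr, which regenerates the cofactor, was higher (0.40), and Pts and Spr were not called. Of the 6 genes of the proline branch, 2 were higher, Pycr3 (0.51) and Pycr1, which stayed at 1.77 CPM or below and is named after its values were seen.

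The antizymes, which target ornithine decarboxylase for degradation, and the antizyme inhibitors gave 1 call among 4 counted genes. Oaz1 was at 269 to 313 CPM in F4/80hi and at 249 to 309 CPM in F4/80int MAMs (log2 fold change 0.01, SE 0.11). Azin2, named after its values were seen, was called at low levels, with 3.19 to 4.35 CPM in F4/80hi and 0.78 to 1.28 CPM in F4/80int MAMs. Of 8 genes of polyamine synthesis and methionine salvage, 3 were higher and 3 lower, or 75.0% called, against 54.9% of all genes. Mtap, which recycles the methylthioadenosine left by spermidine and spermine synthases, was at 50.3, 81.7 and 49.1 CPM in F4/80hi and at 27.4, 28.4 and 26.0 CPM in F4/80int MAMs. It rose by a log2 fold change of 1.15 (SE 0.19, adjusted p = 0.0015, edgeR), and like Srm it was highest in F4/80hi library 2. Adi1, a later enzyme of the same salvage route, was higher (0.71), while Mri1 (-0.41) and Mat2b (-0.34) were lower, the call of Mri1 being lost with total counts only. Amd1, which supplies the aminopropyl donor, was not called (0.29, SE 0.16), and its near-identical copies make its count uncertain.

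Of the 6 genes of polyamine breakdown and transport, 4 were called (66.7%, against 54.9% of all genes), all as higher in F4/80hi MAMs. Over all genes, 27.8% were called as higher. Paox, an oxidase of acetylated polyamines, was at 40.7, 37.0 and 41.7 CPM in F4/80hi and at 9.03, 9.43 and 10.8 CPM in F4/80int MAMs, with a log2 fold change of 2.03 (SE 0.10, adjusted p = 4.2e-06, edgeR). This enzyme acts on the products of Sat1, which was called in the opposite direction. Atp13a2, a lysosomal polyamine exporter, was at 447, 373 and 499 CPM against 212, 222 and 246 CPM (0.95, SE 0.12). Sat2 and the vesicular transporter Slc18b1 were also called as higher, at 2.34 CPM or below, and are named after their values were seen. Smox, the spermine oxidase, was not called (-0.55, SE 0.27, adjusted p = 0.13), with 174 CPM in F4/80int library 3 and 73.0 to 93.9 CPM in the other 5. Of the 4 genes of hypusination, the modification of the translation factor eIF5A made from spermidine, edgeR called 0, with 0 at an unadjusted p under 0.05 and 0 called by DESeq2 or limma-voom, and their log2 fold changes were between -0.05 and 0.02.

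Of 13 counted regulators of Arg1, Nos2 and Odc1, 7 were lower and 2 higher in F4/80hi MAMs, or 69.2% called, against 54.9% of all genes. The largest changes were those of Klf4 (-1.82, SE 0.35), Cebpb (-1.31, SE 0.18), Hif1a (-1.29, SE 0.09) and Nfkb1 (-0.95, SE 0.11). Hif1a, the oxygen-regulated transcription factor, was at 139, 132 and 147 CPM in F4/80hi and at 344, 321 and 357 CPM in F4/80int MAMs. Cebpb was at 374 to 384 CPM in F4/80hi MAMs and at 803, 762 and 1259 CPM in F4/80int MAMs, with library 3 highest as for Arg1. Stat6, which carries IL-4 signals to the Arg1 gene, was lower (-0.48) and the receptor gene Il4ra higher (0.40). Myc (0.36), which acts on Odc1, was higher. The part of these regulators in the levels of Arg1, Nos2 and Odc1 was not tested.

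Marker genes of several cell types moved with the same comparison, in which 27.8% of all genes were called as higher and 27.1% as lower. All 8 macrophage markers were higher in F4/80hi MAMs, where they summed to 21916 to 30415 CPM against 6514 to 8176 CPM in F4/80int MAMs. Of 6 classical monocyte markers 5 were lower, with sums of 908 to 1208 against 2236 to 2548 CPM. Of 7 dendritic cell markers 6 were lower (sums of 10.3 to 16.9 against 376 to 670 CPM). Of 8 counted neutrophil markers 7 were lower (80.4 to 115 against 366 to 625 CPM), with S100a8, Ltf and Ngp at 3 counts or fewer in every F4/80hi library. Csf3r, not called, made up most of the F4/80hi sum (80.4, 73.3 and 103 CPM), and Mmp9 most of the F4/80int sum (427, 273 and 358 CPM). Ngp (51.4, 1.30 and 5.06 CPM) and S100a9 (32.8, 1.91 and 5.41 CPM) were highest in F4/80int library 1. Both counted epithelial markers, Cdh1 and Epcam, were lower (8.30 to 11.8 against 197 to 281 CPM). Most of these sums was Cdh1 (247, 264 and 189 CPM in F4/80int MAMs). Krt8, Krt18, Krt19 and Cldn7 of the same list were not among the counted genes. All 7 proliferation markers were higher in F4/80hi MAMs (1422 to 1688 against 622 to 732 CPM). The part of these cells in the levels of the 9 genes was not tested, and in bulk samples fewer cells of a type and less RNA per cell cannot be told apart.

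The marker lists that follow were low in level or had 1 call each, and their counts are to be read against the same shares of all genes. The 4 counted hepatocyte markers summed to 363 to 727 CPM in F4/80hi and 213 to 244 CPM in F4/80int MAMs. All 4 had positive log2 fold changes and 1 was called, Trf (1.18). Nearly all of the sum was Trf, at 473, 353 and 726 CPM in F4/80hi and 242, 208 and 236 CPM in F4/80int MAMs. Alb itself stayed at 6.84 CPM or below in all 6 libraries. Kupffer cell markers summed to at most 14.6 CPM (2 of 4 higher and 1 lower in F4/80hi MAMs) and T cell markers to at most 18.3 CPM (1 of 5 lower). NK cell and ILC1 markers summed to at most 25.8 CPM (4 of 5 lower) and endothelial markers to at most 43.2 CPM (1 of 3 higher and 2 lower). B cell markers summed to 87.5 to 199 CPM, and 1 of 4 was called, as higher.

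In the lymphocytes, the question was whether the polyamine genes differed between NK cells and ILC1 or between metastasis and metastasis-free liver. Markers of NK cells and ILC1 summed to 2948 to 8046 CPM in the 12 libraries and macrophage markers to at most 45.6 CPM. Arg2 and Nos2 had 0 counts in all 12 libraries. With sampling noise alone, this allows up to 0.219 to 0.334 CPM per library (3 counts). That limit leaves out the spread between libraries, which was wider for Srm (0, 0 and 6.38 CPM in LM CD49a- NK cells). Slc7a2, Arg1 and Ass1 reached at most 11, 46 and 76 counts in a library and are given by level only.

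Odc1 was at 64.3, 96.2 and 95.0 CPM in MFL NK cells and at 204, 115 and 138 CPM in MFL ILC1. In LM it was at 161, 26.4 and 221 CPM in CD49a- NK cells and at 250, 113 and 256 CPM in CD49a+ NK cells. All MFL NK libraries lay below all libraries of MFL ILC1 and of LM CD49a+ NK cells, while the LM CD49a- NK libraries spanned nearly the whole range. Odc1 was not called in either comparison (adjusted p = 0.92 for MFL ILC1 over MFL NK cells, edgeR). How many of all genes were without overlap was not determined for lymphocytes. The largest difference was between LM CD49a+ NK cells and MFL NK cells, at a log2 fold change of 1.27 (SE 0.51, unadjusted p = 0.023, adjusted p = 0.44 in edgeR's fit). Leaving out LM CD49a- NK library 2, the one at 26.4 CPM, gave 1.27 with an adjusted p of 0.084, and the fit with no low-count filter gave 1.27 with an adjusted p of 0.0043. The 7 proliferation markers summed to 583 to 702 CPM in NK cells and 296 to 402 CPM in ILC1 of MFL, and to 469 to 830 CPM in CD49a- and 854 to 1341 CPM in CD49a+ NK cells of LM. Their part in the levels of Odc1 was not tested.

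Srm was at 4.33, 15.5 and 9.18 CPM in MFL NK cells and at 3.65, 7.03 and 7.58 CPM in MFL ILC1. In LM it was at 0, 0 and 6.38 CPM in CD49a- NK cells and at 6.29, 31.3 and 6.48 CPM in CD49a+ NK cells. LM CD49a- NK libraries 1 and 2, both at 0, had 9885 and 9608 genes with at least 10 counts, against 12601 in library 3. Libraries of the other populations had 10511 to 13218 such genes. Library 2 was also the one at 26.4 CPM for Odc1. The part of this lower detection in the levels of Srm and Odc1 was not tested. The spread within LM populations was as wide as the differences between populations. The log2 fold change of LM CD49a+ over LM CD49a- NK cells was 2.77 (SE 1.65, adjusted p = 0.54, edgeR), and Srm was called in this comparison without LM CD49a- NK library 3 (adjusted p = 0.050), when the remaining libraries of that population were both at 0.

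Sms ranged from 21.5 CPM in an LM CD49a- NK library to 93.4 CPM in another of the same population, and NK cells and ILC1 of MFL had means of 41.2 ± 8.30 and 52.7 ± 8.09 CPM (SD, n = 3 each). The CD49a- and CD49a+ NK cells of LM had means of 46.5 ± 40.7 and 60.7 ± 27.3 CPM. Sat1 was tightest in the MFL populations, with 102 ± 10.1 CPM in NK cells and 87.1 ± 5.02 CPM in ILC1, and reached 168 and 169 CPM in library 3 of both LM populations. Both were also among the highest for Odc1.

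**Figure D5:**
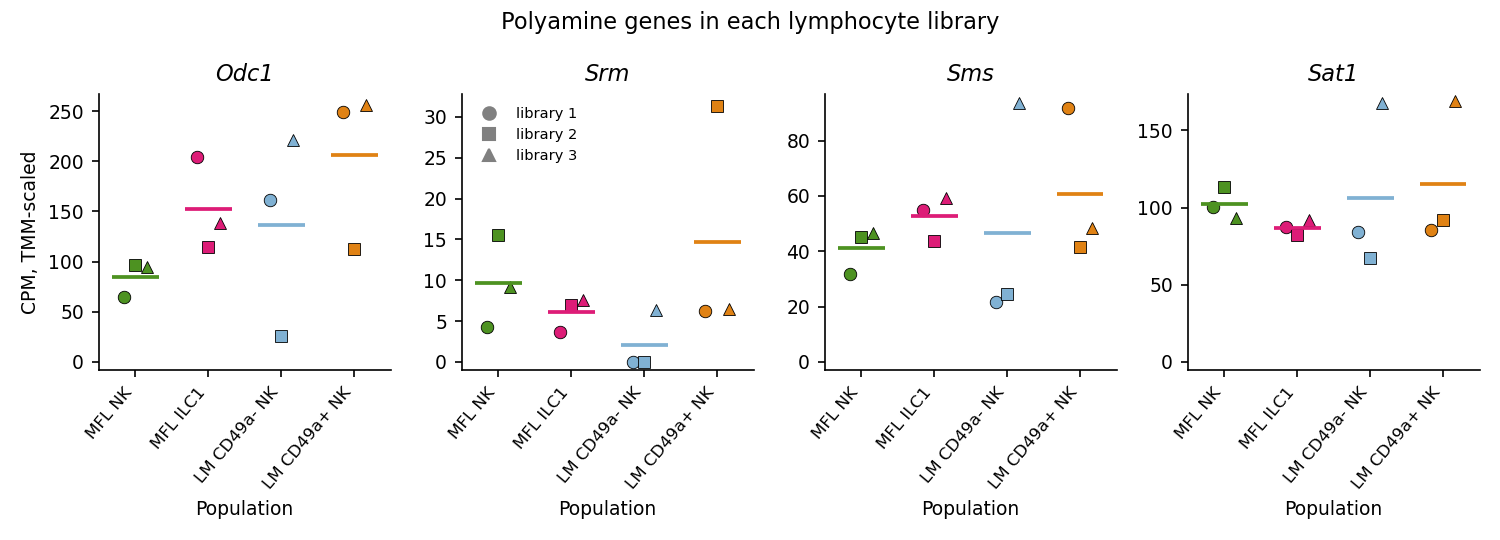
Level (CPM after TMM scaling) of Odc1, Srm, Sms and Sat1 in each of the 3 libraries of each population, from MFL (NK cells, ILC1) or LM (CD49a- or CD49a+ NK cells), with bars for the mean. Odc1 in MFL NK cells lies at 64.3 to 96.2 CPM, below MFL ILC1 and LM CD49a+ NK cells but not called against either. The LM CD49a- NK libraries are the most scattered.

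Of the 4 polyamine genes, edgeR called 0 between MFL ILC1 and MFL NK cells, where 3.06% of all genes were called, and 0 between LM CD49a- NK cells and MFL NK cells, where 0.0736% were called. It also called 0 between CD49a+ and CD49a- NK cells of LM (0.14% of all genes) and 0 between LM CD49a+ NK cells and MFL NK cells (0.647%). The interaction of CD49a and site asks whether the CD49a+ and CD49a- populations differ by the same amount in LM and MFL. Its CD49a+ population is ILC1 in MFL and NK cells in LM, so cell type and site cannot be told apart in it. The interaction gave 0 calls (1.03% of all genes), and the test of any difference among the 4 populations gave 0 (4.77%). DESeq2 and limma-voom called 0 in each of these, and 1 gene, Odc1 between LM CD49a+ NK cells and MFL NK cells, had an unadjusted p under 0.05.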

How the data were processed

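The members and gene lists were chosen with earlier results of these data known. For lymphocytes, the authors trimmed reads with Trim Galore, quantified GENCODE transcripts (GRCm39) with Salmon 1.5.0 and summed them to genes with tximport. The deposited values are estimated counts, unnormalized, rounded here to whole numbers. For MAMs, the submitters' processing notes name Salmon 1.10.0 without its role, and the deposited table of estimated counts holds genes with a total of at least 37. Libraries were stranded. Positions, lengths and names are from GENCODE vM39 (GRCm39), which named 13726 of 13759 and 53700 of 54309 IDs.

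Counts were filtered with filterByExpr, TMM-scaled and compared by edgeR 4.0.16's quasi-likelihood test in R 4.3.3, in 1 fit of the 6 MAM and 1 of the 12 lymphocyte libraries. The SE is the log2 fold change divided by the square root of F and is approximate. Genes named are the 9 members and, per list, up to 4 called genes with at least 5 CPM by size of change, plus genes that show what a list holds, and 2 genes under this rule are not reported here. Correlations used log2 CPM with a prior count of 2. The test was tried on simulated data. Alternatives included DESeq2 1.42.0 and limma 3.58.1. No pair of libraries agreed within sampling noise. Figures used Python 3.11.15 with matplotlib 3.10.9.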

Additional observations from a re-analysis of the deposited data

How the results depend on the processing

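Between the MAM subsets, 7 of the 9 genes were called under each alternative except an adjusted p under 0.05 and the filter at a mean of 5 CPM (6 each) and the fits without 1 library (6 to 8). The calls of Slc7a2, Arg1, Nos2, Ass1 and Srm kept their direction and their side of the threshold throughout, and that of Arg2 did so wherever it was tested. Sms, not called, had a positive log2 fold change with total counts only (0.15) and with the filter at a mean of 5 CPM (0.0073), and lay between -0.10 and 0.10 without 1 library. Its rank by merged exon length moved from 6 to 7 in F4/80int MAMs, below Nos2. Arg2 had 2 to 85 counts per library, which limits its fold change.

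In lymphocytes, 1 polyamine gene in place of 0 was called with no low-count filter between LM CD49a+ NK cells and MFL NK cells (Odc1, adjusted p = 0.0043) and in the test of any difference (Odc1, adjusted p = 0.015). Without 1 library, 0 to 1 was called in every comparison but that of MFL ILC1 with MFL NK cells, where 0 was called. These calls came without LM CD49a- NK library 2 (Odc1) or library 3 (Srm), and the cause was not tested. The log2 fold change of LM CD49a- NK cells over MFL NK cells turned negative for Sms with the replicate block (-0.012) and for Sat1 with the replicate block (-0.059) and total counts only (-0.058). Over LM CD49a- and over MFL NK cells, that of LM CD49a+ NK cells turned negative for Sat1 with limma-voom (-0.17 and -0.027). Without 1 library, the ranges that crossed 0 were those of LM CD49a- over MFL NK cells for Sms (-0.85 to 0.51) and Sat1 (-0.45 to 0.30), of CD49a+ over CD49a- NK cells of LM for Sms (-0.074 to 1.40) and Sat1 (-0.27 to 0.60), and of LM CD49a+ over MFL NK cells for Srm (-0.60 to 1.12) and Sat1 (-0.22 to 0.33).

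The number of all genes called moved far more in lymphocytes than in MAMs. Between MFL ILC1 and MFL NK cells it was 416, 667 with DESeq2, 2645 with limma-voom and 268 to 562 without 1 library. Between LM CD49a- and MFL NK cells it was 10, 4 at an adjusted p under 0.05, 158 with no filter, 5 with the filter at a mean of 5 CPM, 161 with DESeq2, 104 with limma-voom and 1 to 110 without 1 library. Between CD49a+ and CD49a- NK cells of LM it was 19, and under the same settings 8, 200, 12, 543, 0 and 5 to 267. Between LM CD49a+ and MFL NK cells it was 88, 57 at an adjusted p under 0.05, 371 with no filter, 365 with DESeq2, 307 with limma-voom and 26 to 168 without 1 library. The interaction gave 140, 90 at an adjusted p under 0.05, 264 with no filter, 349 with DESeq2 and 75 to 256 without 1 library. The test of any difference gave 649, 1335 with no filter, 1221 with DESeq2, 3568 with limma-voom and 387 to 967 without 1 library.

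The replicate numbers were not taken to pair the libraries. Between libraries of the same number, the deviations from the group means correlated at -0.01 to 0.17 over the 3 MAM pairs and -0.05 to 0.10 over the 18 lymphocyte pairs, and not every library correlated best with its own number. Such correlations cannot show that the libraries were unpaired. The hemoglobin sums were highest in library 3 of both MAM subsets (27.7 CPM in F4/80hi and 63.7 CPM in F4/80int MAMs). With the replicate block, 7 of the 9 genes and 7512 of all genes were called between the MAM subsets, and 0 of the 4 polyamine genes in each lymphocyte comparison.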
